A study of Mus musculus with 119 samples.

Results

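The 4 genes described here are *Errfi1* and 3 ligands of the epidermal growth factor (EGF) receptor, *Hbegf*, *Areg* and *Ereg*. They were taken by gene symbol from 18098 genes measured by RNA-seq in libraries of mouse bone marrow-derived macrophages (BMDMs). *Errfi1* was selected on its measured values, for its rise with LPS in wild-type cells and for its lower level after LPS in *Map3k8*[D270A] cells, so its values in every comparison with WT or *Map3k8*[D270A] libraries are given as a description, with no test. The ligands were named for their function, but with earlier results of these data known. Their adjusted p-values make no allowance for that. *Errfi1*, *Hbegf* and *Areg* passed the filter on low values and were tested, and *Ereg* did not pass.

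Receptors of the EGF family are tyrosine kinases that pair up and activate each other when a ligand binds, and one of their main outputs is the ERK kinase cascade. HB-EGF, amphiregulin and epiregulin, the products of *Hbegf*, *Areg* and *Ereg*, are made as membrane-bound precursors and are released when the protease ADAM17 cuts them. MIG6, the product of *Errfi1*, binds the kinase domain of the activated receptor and shuts it off, and its gene is a well known feedback target of ERK signaling. In macrophages, LPS reaches ERK1/2 through the kinase TPL-2, encoded by *Map3k8*, which activates the ERK kinases MKK1 and MKK2. TPL-2 is held inactive by the NF-kB precursor p105, encoded by *Nfkb1*, until IKK phosphorylates p105. Downstream of ERK1/2 stand the RSK kinases and the transcription factors ELK1 and ELK4, which act together with SRF.

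All cells carried the C57BL/6(NIMR) label and were grown from marrow in L-cell conditioned medium, then kept overnight in low serum. LPS was used at 100 ng/ml for 0.5, 1 or 2 h. The WT arm had 6, 6, 6 and 4 libraries at 0, 0.5, 1 and 2 h, numbered 4 to 9 (4 to 7 at 2 h). *Map3k8*[D270A] cells, which make TPL-2 without kinase activity, had 6 libraries at each of these times, and *Elk1*-/-*Elk4*-/- cells, which lack both factors, had 4 at each. *Nfkb1*[SS/AA] cells, whose p105 cannot be phosphorylated by IKK, had 6 libraries each without LPS and after 0.5 and 1 h. WT cells given the MKK1/2 inhibitor PD0325901 at 0.1 µM had 3 libraries each after 10, 40 and 70 min without LPS and 6 each with LPS for 0.5 and 1 h after 10 min of inhibitor, beside 3 libraries after 10 min of DMSO. WT cells given the RSK inhibitor RSKi47 at 2 µM had, after 10 min of inhibitor, 4, 3, 4 and 4 libraries at 0, 0.5, 1 and 2 h of LPS. The study calls its libraries biological replicates, but the sources used here do not say which came from separate mice or cultures, and p-values measure the spread between these libraries. The labels name the same experiment for WT and *Map3k8*[D270A] libraries and a separate one for each other arm. The WT libraries stood as the control for every arm, so arm and experiment cannot be told apart for *Elk1*-/-*Elk4*-/-, *Nfkb1*[SS/AA], PD0325901 and RSKi47.

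Values were on a log2 scale as the authors normalized them, a difference of 1 therefore standing for a factor of 2, and genes without signal sat at a low gene-specific floor. Levels are compared here within a gene and not between genes, because the values were not corrected for length. A difference was called at an adjusted p under 0.05 over all genes tested. All 8 macrophage markers were high in every arm, their summed level ranging from 18.4 to 19.2. The summed level of 7 neutrophil markers ranged from 6.23 to 7.73 in WT and from 6.12 to 7.53 in *Map3k8*[D270A] libraries, but from 10.04 to 11.04 in *Elk1*-/-*Elk4*-/-, from 7.28 to 8.81 in PD0325901, from 7.08 to 8.59 in RSKi47 and from 6.72 to 8.34 in *Nfkb1*[SS/AA] libraries. That of 6 stromal markers ranged from 3.99 to 4.95 in WT and from 5.07 to 9.42 in RSKi47 libraries. Their part in the differences between arms was not tested. In bulk RNA, fewer cells that make a transcript and less of it in each cell cannot be told apart.

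*Errfi1* lies at chr4:150853796-150868889 of GRCm38.p6, and 2 of its transcription starts are in the RefSeq promoter set for that build. *Areg* lies at chr5:91139599-91148432 beside other ligands of the family, *Ereg* at chr5:91074617-91093649, *Epgn* at chr5:91027517-91035212 and *Btc* at chr5:91357261-91402994. The 250 bases before the start of the second *Errfi1* transcript, chr4:150854820-150855069, and of *Areg*, chr5:91139349-91139598, both on the plus strand, are shown because of the motifs they share. *Hbegf* and *Ereg* had no entry in that set. Capitals mark TGACGTCA and TATAAA.
*Errfi1*: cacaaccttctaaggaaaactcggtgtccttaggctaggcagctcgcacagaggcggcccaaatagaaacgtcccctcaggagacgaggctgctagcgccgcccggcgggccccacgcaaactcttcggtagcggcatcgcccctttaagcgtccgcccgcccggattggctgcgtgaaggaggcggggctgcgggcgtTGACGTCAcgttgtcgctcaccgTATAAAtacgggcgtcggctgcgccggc
*Areg*: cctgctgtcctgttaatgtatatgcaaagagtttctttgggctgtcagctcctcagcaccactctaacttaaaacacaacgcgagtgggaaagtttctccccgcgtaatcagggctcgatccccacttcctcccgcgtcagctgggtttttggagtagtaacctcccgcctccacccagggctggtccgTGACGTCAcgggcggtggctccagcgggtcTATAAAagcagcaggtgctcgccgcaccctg

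Both of these windows, picked for display after the search, held the palindrome TGACGTCA, the full cAMP response element, 44 to 51 bases before the start in *Errfi1* and 54 to 61 bases before it in *Areg*. Each also held TATAAA, 23 to 28 bases before the start in *Errfi1* and 26 to 31 in *Areg*. Among 32851 promoter windows of the same length, 1.55% held TGACGTCA, 12.4% held TATAAA on either strand and 0.119% held both. The core of the cAMP response element, TGACG, which lies within TGACGTCA, also occurred alone on the minus strand of the *Areg* window, 111 to 115 bases before the start, and 17.8% of windows held it. Neither window held the AP-1 site TGANTCA with C or G in the middle (4.46% of windows), a CArG box, the letters SRF binds (1.47%), or an NF-kB site (7.25%). The window of the other *Errfi1* start, chr4:150853546-150853795, held none of these motifs and was 38% G or C, against 64.8% in the second *Errfi1* window and 57.2% in that of *Areg*. A match is a description of the letters and does not show that a factor binds there.

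**Figure D1:**
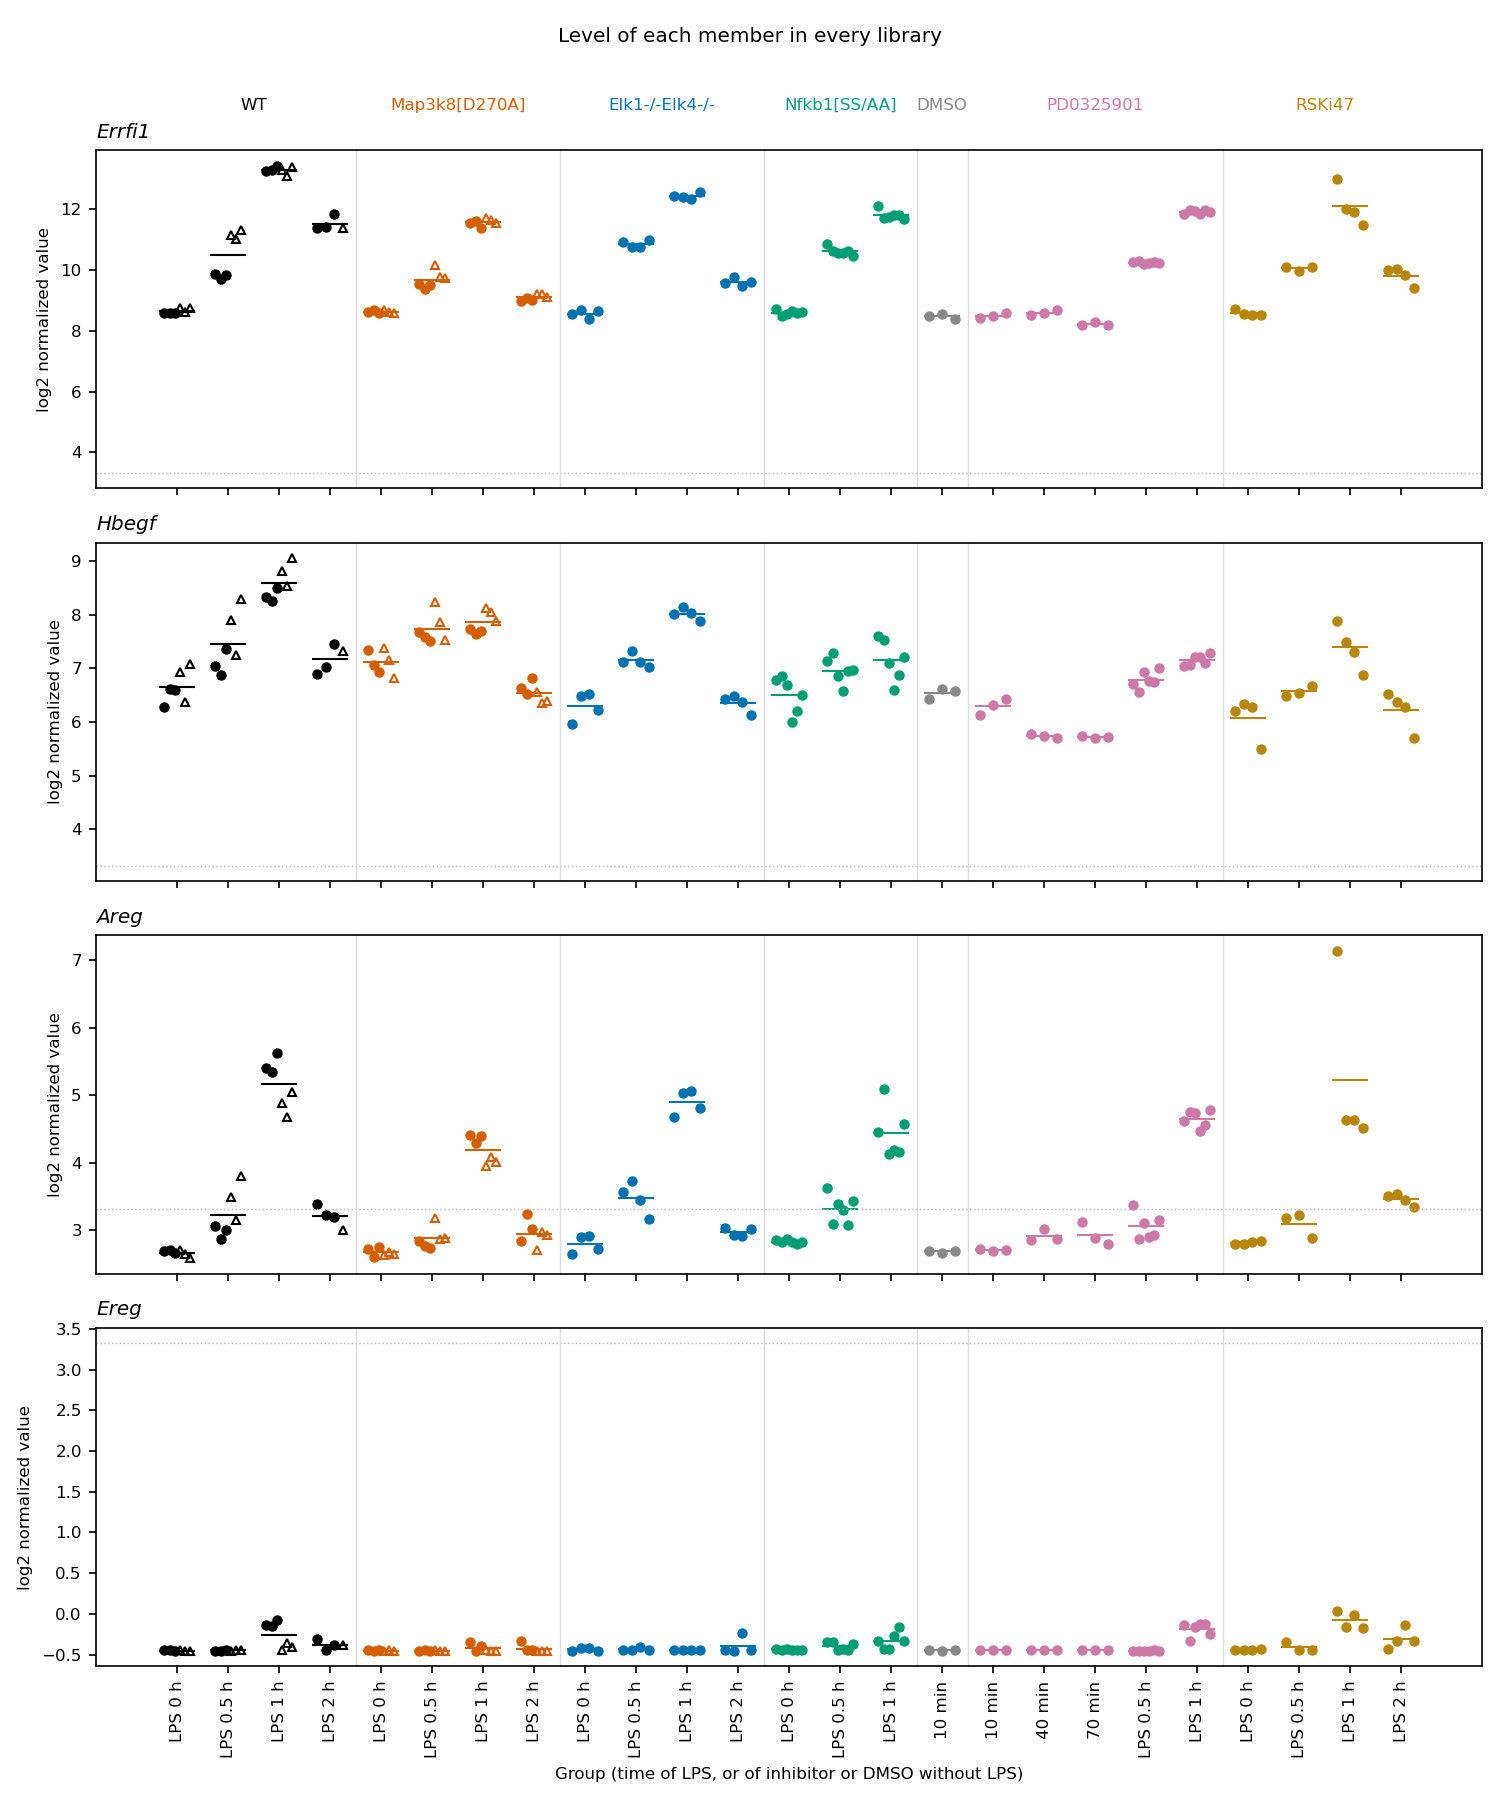
Log2 normalized value (y axis) of *Errfi1*, *Hbegf*, *Areg* and *Ereg* in every library (points) by group (x axis), with the group mean as a bar and the filter on low values as a dotted line. Open triangles are WT replicates 7 to 9 and *Map3k8*[D270A] replicates 4 to 6, and *Errfi1* in WT cells at 0.5 h splits into 3 libraries between 9.71 and 9.87 and 3 between 11.03 and 11.32.

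In WT macrophages *Errfi1* was highest at 1 h of LPS. Its log2 value ran from 8.58 to 8.75 (median 8.60) without LPS, from 9.71 to 11.32 (median 10.45) at 0.5 h and from 13.11 to 13.44 (median 13.29) at 1 h. At 2 h the 4 libraries stood at 11.39, 11.43, 11.84 and 11.37. None of these 4 groups overlapped another. The rise over 0 h was 1.85 (SE 0.15), 4.66 (SE 0.15) and 2.86 (SE 0.17) on the log2 scale at 0.5, 1 and 2 h, which is 3.60-fold, 25.2-fold and 7.28-fold, and from 1 h to 2 h the level was 3.46-fold lower.

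At 0.5 h the WT libraries of *Errfi1* fell into 2 sets that follow their numbers. Replicates 4 to 6 had 9.87, 9.71 and 9.83, and replicates 7 to 9 had 11.17, 11.03 and 11.32. The same sets did not separate at 1 h, where their means were 13.33 and 13.27. *Hbegf* at 0.5 h had 7.04, 6.88 and 7.35 in replicates 4 to 6 and 7.91, 7.26 and 8.29 in replicates 7 to 9. *Areg* at 0.5 h had 3.06, 2.87 and 3.01 against 3.49, 3.15 and 3.80, and at 1 h the order turned, with 5.40, 5.35 and 5.62 in replicates 4 to 6 and 4.89, 4.68 and 5.04 in replicates 7 to 9.

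The ligand genes *Hbegf* and *Areg* also peaked at 1 h. *Hbegf* ran from 6.28 to 7.09 (median 6.60) at 0 h, from 6.88 to 8.29 (median 7.30) at 0.5 h and from 8.26 to 9.05 (median 8.52) at 1 h, and had 6.89, 7.02, 7.45 and 7.32 at 2 h. All 6 libraries at 1 h lay above all at 0 h, while those at 0.5 and 2 h overlapped them. Each library at 0.5 and 2 h still lay above the library of the same number at 0 h. Its rise over 0 h was 0.81 (SE 0.16, adjusted p = 0.000143), 1.94 (SE 0.16, adjusted p = 7.28e-16) and 0.53 (SE 0.18, adjusted p = 0.00672), or 1.75-fold, 3.83-fold and 1.44-fold. The call at 2 h was lost without WT replicate 6 (0.43, adjusted p = 0.0622). From 1 h to 2 h *Hbegf* fell by 1.41 (SE 0.18, adjusted p = 5.97e-10), as did 31.7% of genes.

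*Areg* ran from 2.59 to 2.71 (median 2.68) at 0 h, from 2.87 to 3.80 (median 3.11) at 0.5 h and from 4.68 to 5.62 (median 5.20) at 1 h, and had 3.39, 3.23, 3.20 and 3.002 at 2 h. These values were low, and *Areg* reached the filter of 3.32 in 46 libraries, with all WT libraries at 0 h below it and all at 1 h above it. Because it passed the filter through libraries given LPS, its differences between LPS and no LPS within an arm are a description, with no test. None of the WT groups with LPS overlapped the group at 0 h. The difference from 0 h was 0.56 (SE 0.12), 2.50 (SE 0.12) and 0.54 (SE 0.13), or 1.48-fold, 5.64-fold and 1.45-fold, and that from 1 h to 2 h was -1.96 (SE 0.13). Of all genes tested, 7.82%, 23.8% and 34.7% were called higher at 0.5, 1 and 2 h, as *Hbegf* was.

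*Ereg* did not reach the filter in any library, its highest value being 0.038. In 78 libraries it lay within 0.02 of its lowest value, -0.46. Of the 41 others, 23 were among the 32 libraries at 1 h of LPS, 9 among the 18 at 2 h, 5 among the 31 at 0.5 h and 4 among the 38 without LPS. At 1 h it was above this floor in 5 of 6 WT libraries, 6 of 6 with PD0325901, 4 of 4 with RSKi47 and 6 of 6 *Nfkb1*[SS/AA] libraries, but in 2 of 6 *Map3k8*[D270A] and 0 of 4 *Elk1*-/-*Elk4*-/- libraries. WT values at 1 h ran from -0.45 to -0.07, and *Elk1*-/-*Elk4*-/- values from -0.45 to -0.44. Without LPS it was above the floor in 2 of 6 *Nfkb1*[SS/AA] and 2 of 4 *Elk1*-/-*Elk4*-/- libraries, and *Nfkb1*[SS/AA] replicates 2 and 3 at 1 h lay within that arm's range without LPS. At 1 h the mean was -0.12 in WT replicates 4 to 6 and -0.40 in WT replicates 7 to 9, against -0.40 in *Map3k8*[D270A] replicates 1 to 3 and -0.45 in replicates 4 to 6. These are differences at the edge of detection. In a fit without the filter, *Ereg* at 1 h passed the test against WT as lower in *Map3k8*[D270A] (-0.16) and *Elk1*-/-*Elk4*-/- (-0.18) libraries and as higher in RSKi47 libraries (0.18). It did not pass in *Nfkb1*[SS/AA] or PD0325901 libraries. In none of these 5 arms did the difference of its LPS response at 1 h from that of WT cells pass the test.

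**Figure D2:**
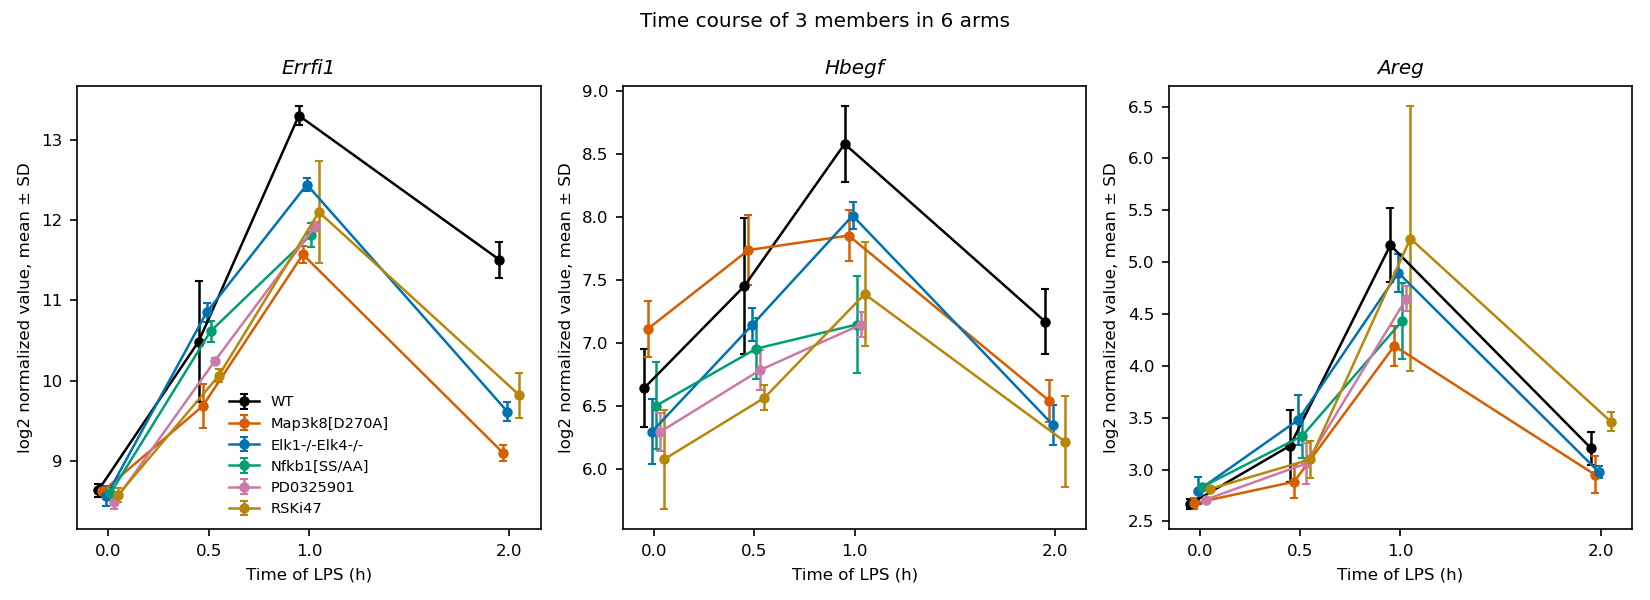
Mean log2 normalized value ± SD (y axis) of *Errfi1*, *Hbegf* and *Areg* against the time of LPS (x axis) in the WT, *Map3k8*[D270A], *Elk1*-/-*Elk4*-/-, *Nfkb1*[SS/AA], PD0325901 and RSKi47 arms, with 10 min of PD0325901 as its 0 h. The WT mean of *Errfi1* peaks at 13.30 at 1 h, above the means of all other arms, which lie between 11.57 and 12.44.

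In the order of the 25 group means, WT at 1 h was highest for *Errfi1* (13.30 ± 0.12, SD, n = 6), apart from the next, *Elk1*-/-*Elk4*-/- at 1 h (12.44 ± 0.08, SD, n = 4). It was also highest for *Hbegf* (8.58 ± 0.30, SD, n = 6), again apart from *Elk1*-/-*Elk4*-/- at 1 h (8.01 ± 0.11, SD, n = 4). The 6 highest means of *Errfi1* and of *Areg* were those of the 6 arms at 1 h. For *Areg* each of the first 5 of them overlapped the next in range. *Hbegf* was ordered otherwise, since *Map3k8*[D270A] cells at 0.5 h (7.74 ± 0.28, SD, n = 6) took rank 4.

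*Map3k8*[D270A] cells were compared with WT cells to ask what the LPS response takes from TPL-2 kinase activity. *Errfi1* was at the WT level without LPS, from 8.58 to 8.69 (median 8.61), a difference of -0.02 (95% interval -0.33 to 0.29). It then ran from 9.39 to 10.17 (median 9.64) at 0.5 h, from 11.39 to 11.70 (median 11.57) at 1 h and from 8.99 to 9.23 (median 9.09) at 2 h. The groups did not overlap at 1 and 2 h, and the difference from WT was -0.80 (SE 0.15), -1.73 (SE 0.15) and -2.41 (SE 0.17) on the log2 scale, or 1.75-fold, 3.31-fold and 5.30-fold lower. Within the arm, *Errfi1* stood higher at 0.5, 1 and 2 h than without LPS by 1.06 (SE 0.14), 2.95 (SE 0.14) and 0.48 (SE 0.14), with no overlap at any of these times.

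The size of the *Errfi1* difference at 0.5 h depended on which libraries were compared. WT replicates 4 to 6 and *Map3k8*[D270A] replicates 1 to 3 differed by -0.32, and WT replicates 7 to 9 and *Map3k8*[D270A] replicates 4 to 6 by -1.28, and with libraries weighted by their spread it was -0.48. These sets were matched only by the order of their numbers. Their means at 0.5 h were 9.81 and 11.17 in WT and 9.48 and 9.89 in *Map3k8*[D270A] libraries. At 1 h the same 2 sets gave -1.82 and -1.63, and at 2 h, where the second set has 1 WT library, -2.53 and -2.18.

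*Hbegf* and *Areg* were both lower in *Map3k8*[D270A] than in WT cells at 1 h. *Hbegf* ran from 6.82 to 7.38 (median 7.11) at 0 h, from 7.52 to 8.24 (median 7.64) at 0.5 h, from 7.64 to 8.13 (median 7.80) at 1 h and from 6.36 to 6.82 (median 6.54) at 2 h. Its difference from WT was 0.47 (SE 0.16, adjusted p = 0.131) and 0.29 (SE 0.16, adjusted p = 0.515) at 0 and 0.5 h, and with library weights both were called, at 0.53 (adjusted p = 0.00526) and 0.47 (adjusted p = 0.024). It was -0.73 (SE 0.16, adjusted p = 0.000932) at 1 h and -0.63 (SE 0.18, adjusted p = 0.00522) at 2 h, 1.65-fold and 1.55-fold lower with no overlap. Among all genes 4.64% and 13.1% were called lower at 1 and 2 h. Within the 2 sets of replicates the *Hbegf* difference was -0.68 (adjusted p = 0.00216) and -0.77 (adjusted p = 0.0807) at 1 h, and -0.47 (adjusted p = 0.0108) and -0.89 (adjusted p = 0.113) at 2 h. Without LPS, *Hbegf* was called higher in *Map3k8*[D270A] cells when WT replicate 9 was left out (0.56, adjusted p = 0.0166), with 0.606% of genes called higher in the full comparison. It was also called in WT replicates 4 to 6 and *Map3k8*[D270A] replicates 1 to 3 alone (0.62, adjusted p = 0.0174).

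*Areg* ran from 2.61 to 2.75 (median 2.66) at 0 h, from 2.74 to 3.19 (median 2.85) at 0.5 h, from 3.95 to 4.41 (median 4.19) at 1 h and from 2.71 to 3.24 (median 2.95) at 2 h. At 1 h every *Map3k8*[D270A] library lay below every WT library, by -0.97 (SE 0.12, adjusted p = 7.34e-09), or 1.96-fold, and at the other times the groups overlapped. Within the sets of replicates it was -1.09 (adjusted p = 2.11e-08) and -0.85 (adjusted p = 0.00063). The differences were 0.01 at 0 h (adjusted p = 0.99), -0.35 at 0.5 h (SE 0.12, adjusted p = 0.154) and -0.26 at 2 h (SE 0.13, adjusted p = 0.147). The last was called with library weights (-0.28, adjusted p = 0.0261) and in WT replicates 4 to 6 and *Map3k8*[D270A] replicates 1 to 3 alone (-0.24, adjusted p = 0.0251).

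The LPS response itself was smaller in *Map3k8*[D270A] than in WT cells for both ligands at 1 h, when the 2 responses were set against each other in 1 fit. For *Hbegf* the response differed by -1.20 (SE 0.22, adjusted p = 8.44e-05) at 1 h and by -1.10 (SE 0.24, adjusted p = 0.000206) at 2 h. For *Areg* it differed by -0.98 (SE 0.24, adjusted p = 0.00723) at 1 h and by -0.26 (SE 0.25, adjusted p = 0.561) at 2 h. Responses called lower, that is a smaller rise or a larger fall, were found for 1.56% and 9.46% of genes at 1 and 2 h. In *Map3k8*[D270A] cells *Hbegf* rose by 0.74 (SE 0.16, adjusted p = 4.26e-05) to 1 h, as did 22.5% of genes, and by 2 h had fallen below its level without LPS, by -0.57 (SE 0.16, adjusted p = 0.000824), at a time when 34.9% of genes were called lower in that arm. In WT cells it was still above that level.

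**Figure D3:**
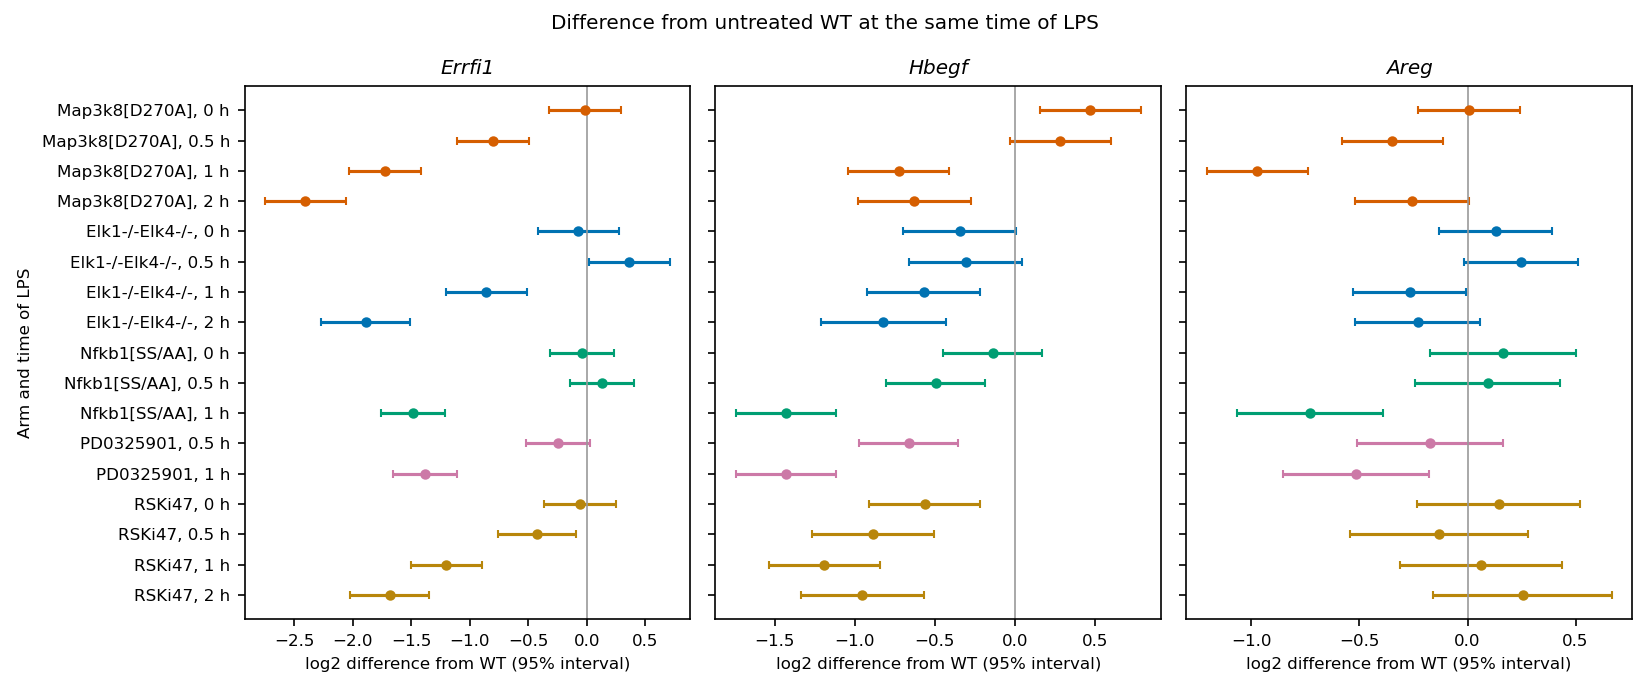
Log2 difference from untreated WT at the same time of LPS (x axis, point with 95% interval) for *Errfi1*, *Hbegf* and *Areg* in each arm (y axis). *Errfi1* in *Map3k8*[D270A] cells lies further from 0 at each later time, down to -2.41 at 2 h, and the *Areg* interval of RSKi47 at 1 h includes the library that stands at 7.14.

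In *Elk1*-/-*Elk4*-/- cells, compared with WT to ask which part of the response needs both factors, *Errfi1* rose with LPS, most at 1 h, and its level at 1 and 2 h lay below that of WT cells. It had 8.54, 8.68, 8.40 and 8.65 at 0 h, 10.92, 10.75, 10.75 and 10.98 at 0.5 h, 12.43, 12.42, 12.35 and 12.56 at 1 h, and 9.58, 9.78, 9.49 and 9.62 at 2 h. At 1 and 2 h all 4 libraries lay below the WT libraries, and at 0.5 h they lay between the 2 sets of WT libraries. The difference from WT was -0.07 (SE 0.17), 0.36 (SE 0.17), -0.86 (SE 0.17) and -1.89 (SE 0.19), the last being 3.70-fold. At 0.5 h it was 0.21 to 0.24 without WT replicate 4, 5 or 6, 0.47 to 0.53 without WT replicate 7, 8 or 9, and 0.74 with library weights. Within the arm, the rise over 0 h was 2.28 (SE 0.17, adjusted p = 1.15e-21), 3.87 (SE 0.17, adjusted p = 1.17e-38) and 1.05 (SE 0.17, adjusted p = 4.2e-08) at 0.5, 1 and 2 h, times at which 3.32%, 17.1% and 35.3% of genes were called higher.

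*Hbegf* in *Elk1*-/-*Elk4*-/- cells had 5.97, 6.49, 6.52 and 6.22 at 0 h, 8.01, 8.14, 8.02 and 7.88 at 1 h and 6.42, 6.48, 6.37 and 6.13 at 2 h. It was lower than in WT cells by -0.57 (SE 0.18, adjusted p = 0.00575) at 1 h and -0.82 (SE 0.19, adjusted p = 0.00036) at 2 h, without overlap, where 26.2% and 23.1% of all genes were called lower. At 0 and 0.5 h it differed by -0.34 (SE 0.18, adjusted p = 0.0972) and -0.31 (SE 0.18, adjusted p = 0.154), and the first was called without WT replicate 4 (-0.42, adjusted p = 0.046) and with library weights (-0.39, adjusted p = 0.01). *Areg* had 4.677, 5.04, 5.06 and 4.81 at 1 h, overlapping the WT libraries, the lowest of which had 4.682. It did not pass the test at any time, with -0.27 (95% interval -0.53 to 0.00, adjusted p = 0.0798) at 1 h and -0.23 (95% interval -0.52 to 0.06, adjusted p = 0.177) at 2 h. With library weights it was called higher at 0.5 h (0.44, adjusted p = 0.000645) and lower at 1 h (-0.37, adjusted p = 0.00443) and 2 h (-0.34, adjusted p = 0.0075). The *Areg* difference at 1 h was called without WT replicate 7, 8 or 9 (-0.29 to -0.36), and that at 0.5 h without WT replicate 9 (0.36, adjusted p = 0.0176) or *Elk1*-/-*Elk4*-/- replicate 4 (0.35, adjusted p = 0.0493).

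Of the LPS responses in *Elk1*-/-*Elk4*-/- cells, that of *Errfi1* differed from the WT response by -0.78 (SE 0.22) at 1 h and -1.82 (SE 0.23) at 2 h. Those of *Hbegf* and *Areg* differed by -0.48 (SE 0.26, adjusted p = 0.212) and -0.36 (SE 0.28, adjusted p = 0.418) at 2 h. At 1 h *Hbegf* stood 1.71 above its level without LPS, against 1.94 in WT cells, and *Areg* 2.10 against 2.50. Neither of these differences of responses at 1 h passed the test. Set against *Map3k8*[D270A] cells directly, *Areg* was higher in *Elk1*-/-*Elk4*-/- cells by 0.60 (SE 0.19, adjusted p = 0.00627) at 0.5 h and 0.70 (SE 0.19, adjusted p = 0.00112) at 1 h, times at which 26.8% and 27.1% of genes were called higher. *Hbegf* was lower by -0.59 (SE 0.18, adjusted p = 0.00333) at 0.5 h, with 24.4% of genes called lower, and differed by 0.16 (95% interval -0.19 to 0.51) at 1 h. *Errfi1* stood higher in *Elk1*-/-*Elk4*-/- cells than in *Map3k8*[D270A] cells by 1.17, 0.87 and 0.52 at 0.5, 1 and 2 h.

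*Nfkb1*[SS/AA] cells ask what the step from IKK through p105 gives. *Errfi1* ran from 8.50 to 8.72 (median 8.60) at 0 h, from 10.46 to 10.86 (median 10.60) at 0.5 h and from 11.68 to 12.11 (median 11.78) at 1 h. Its difference from WT was -1.48 (SE 0.14), or 2.80-fold, at 1 h, where the groups stood apart, and 0.13 (95% interval -0.15 to 0.40) at 0.5 h, or 0.54 with library weights. Within the arm it rose by 2.02 (SE 0.14, adjusted p = 6.29e-24) at 0.5 h and 3.21 (SE 0.14, adjusted p = 2.11e-39) at 1 h, when 8.55% and 22.5% of genes were called higher. *Hbegf* ran from 5.99 to 6.86 (median 6.59) at 0 h, from 6.58 to 7.28 (median 6.95) at 0.5 h and from 6.59 to 7.60 (median 7.15) at 1 h. It was lower by -0.50 (SE 0.16, adjusted p = 0.00996) at 0.5 h, a call lost without WT replicate 9 (-0.33, adjusted p = 0.0891) or WT replicate 7 (-0.41, adjusted p = 0.0501) and lost with library weights (-0.22, adjusted p = 0.172) and in a fit of only the groups compared (adjusted p = 0.109), with 15.6% of genes called lower, and by -1.43 (SE 0.16, adjusted p = 5.99e-13), or 2.70-fold, at 1 h.

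*Areg* in *Nfkb1*[SS/AA] cells ran from 4.14 to 5.09 (median 4.33) at 1 h, overlapping the WT libraries, and was lower by -0.73 (SE 0.17, adjusted p = 0.00025). The overlap rests on replicate 2 (5.09), the other replicates running from 4.14 to 4.57, below every WT library. Over all genes replicate 2 also stood furthest from its group's median, by a root mean square of 0.31 against 0.16 to 0.22. Both ligands were therefore lower than WT at 1 h, where 21.9% of all genes were. Their LPS responses to 1 h were smaller as well, by -1.29 (SE 0.22, adjusted p = 6.93e-06) for *Hbegf* and -0.89 (SE 0.24, adjusted p = 0.00942) for *Areg*. Of all genes, 4.3% had a response called lower, a smaller rise or a larger fall. The response of *Errfi1* differed by -1.45 (SE 0.20). At 1 h *Hbegf* was lower than in *Map3k8*[D270A] cells too, by -0.71 (SE 0.16, adjusted p = 0.00011), with 24.6% of genes called lower, while *Areg* differed by 0.24 (95% interval -0.09 to 0.58, adjusted p = 0.238).

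Under PD0325901, which blocks MKK1 and MKK2, *Hbegf* and *Areg* were lower than in untreated WT cells at 1 h of LPS, and *Errfi1* stood below its WT level. *Errfi1* ran from 10.19 to 10.30 (median 10.24) at 0.5 h and from 11.84 to 11.98 (median 11.93) at 1 h, and its difference from WT was -1.38 (SE 0.14), or 2.60-fold, at 1 h, with no overlap. At 0.5 h it differed by -0.24 (SE 0.14), its libraries lying between the 2 sets of WT libraries. The difference was -0.37 to -0.40 without WT replicate 4, 5 or 6, smaller in size than -0.24 without WT replicate 7, 8 or 9, and 0.16 with library weights. *Hbegf* ran from 6.57 to 7.00 (median 6.76) at 0.5 h and from 7.04 to 7.28 (median 7.15) at 1 h, lower by -0.66 (SE 0.16, adjusted p = 0.000598) and -1.43 (SE 0.16, adjusted p = 1.21e-12). *Areg* ran from 4.47 to 4.78 (median 4.67) at 1 h and was lower by -0.51 (SE 0.17, adjusted p = 0.0124). Of all genes 15% and 19.3% were called lower at 0.5 and 1 h. The *Areg* call was lost without WT replicate 6 (-0.42, adjusted p = 0.058) and when inhibitor replicates 1 and 4, 2 and 5, and 3 and 6 were averaged (adjusted p = 0.0681). Over all genes these pairs were the closest libraries of their group, with root mean square differences of 0.11 to 0.12 at 0.5 h and 0.12 to 0.13 at 1 h. Whether each pair repeats 1 culture was not tested. The other SE and p-values for this arm count the 6 as separate libraries.

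PD0325901 was also given without LPS. *Hbegf* had 6.43, 6.62 and 6.58 after 10 min of DMSO and 6.14, 6.32 and 6.43 after 10 min of PD0325901, then 5.77, 5.73 and 5.71 after 40 min and 5.73, 5.69 and 5.71 after 70 min. The libraries at 40 and 70 min all lay below those at 10 min, and their spread was small. The differences from 10 min were -0.56 (SE 0.22, adjusted p = 0.175) and -0.58 (SE 0.22, adjusted p = 0.108) with the spread of all libraries, when 2.26% and 3.47% of genes were called lower. With the spread of only the 6 libraries compared they were called, at adjusted p = 0.00888 and 0.00486, as they were with library weights. *Errfi1* had 8.41, 8.49 and 8.59 at 10 min, 8.52, 8.58 and 8.68 at 40 min and 8.19, 8.29 and 8.19 at 70 min, a difference of -0.27 (SE 0.20, adjusted p = 0.525) from 10 to 70 min, without overlap, which was called with the spread of only the libraries compared (adjusted p = 0.0248). *Areg* had 2.73, 2.69 and 2.71, then 2.86, 3.02 and 2.87, then 3.12, 2.89 and 2.80. Between 10 min of PD0325901 and of DMSO no gene was called by limma in either direction (0%), 245 having an unadjusted p under 0.05, and the members differed by 0.01 (*Errfi1*), -0.24 (*Hbegf*) and 0.02 (*Areg*).

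Relative to the inhibitor alone for the same total time, LPS for 1 h raised *Errfi1* by 3.69 (SE 0.17, adjusted p = 4e-37) and *Hbegf* by 1.44 (SE 0.19, adjusted p = 3.63e-10), 21.9% of genes being called higher, and *Areg* stood 1.71 (SE 0.21) higher. The *Errfi1* response differed from that of WT cells by -0.96 (SE 0.22). That of *Hbegf* differed by -0.50 (SE 0.25, adjusted p = 0.35), and by -1.09 (SE 0.25, adjusted p = 0.00254) when set against 10 min of inhibitor, 2.48% of genes being called lower against the matched time. That of *Areg* differed by -0.78 (SE 0.27, adjusted p = 0.092), and was called in a fit of only the groups compared (adjusted p = 0.0143) and with library weights (-0.85, adjusted p = 0.0012), but not under the other settings run or with any replicate left out, with adjusted p up to 0.375. Against *Map3k8*[D270A] cells, *Hbegf* was lower under PD0325901 by -0.95 (SE 0.16, adjusted p = 1.11e-06) at 0.5 h and -0.71 (SE 0.16, adjusted p = 0.000167) at 1 h, where 15.3% and 22.2% of genes were called lower. *Areg* was higher by 0.46 (SE 0.17, adjusted p = 0.0243) at 1 h, with 18.5% of genes called higher, a call lost without *Map3k8*[D270A] replicate 4 (adjusted p = 0.0591) or 6 (adjusted p = 0.0558) and with the inhibitor replicates averaged (adjusted p = 0.0973).

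RSKi47, which blocks the RSK kinases downstream of ERK1/2, went with lower *Hbegf*, and *Errfi1* stood below its WT level at 1 and 2 h. *Errfi1* had 8.71, 8.57, 8.54 and 8.53 at 0 h, 10.11, 9.97 and 10.11 at 0.5 h, 12.98, 12.003, 11.92 and 11.49 at 1 h, and 9.99, 10.04, 9.83 and 9.42 at 2 h. Replicate 1 was the highest at 1 h, yet all 4 libraries lay below the WT libraries then and at 2 h. The difference of *Errfi1* from WT was -0.43 (SE 0.17) at 0.5 h, -1.20 (SE 0.15) at 1 h and -1.68 (SE 0.17) at 2 h. The first was -0.26 without WT replicate 9 and -0.02 with library weights. Within the arm *Errfi1* rose by 1.48 (SE 0.18, adjusted p = 2.59e-10), 3.51 (SE 0.17, adjusted p = 2.82e-35) and 1.24 (SE 0.17, adjusted p = 3.78e-10) at 0.5, 1 and 2 h, when 3.39%, 15% and 32.5% of genes were called higher. Its response differed from that of WT cells by -1.14 (SE 0.22) at 1 h and -1.63 (SE 0.23) at 2 h.

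*Hbegf* was low in RSKi47 libraries before LPS as well, with 6.21, 6.33, 6.29 and 5.50 at 0 h, 6.48, 6.55 and 6.67 at 0.5 h, 7.88, 7.49, 7.31 and 6.88 at 1 h, and 6.52, 6.38, 6.28 and 5.70 at 2 h. Replicate 4 was the lowest of its group at 0, 1 and 2 h, and over all genes it also stood furthest from its group's median at these times, by a root mean square of 0.23, 0.23 and 0.30 against 0.13 to 0.17 for the other replicates. The difference from WT was -0.56 (SE 0.18, adjusted p = 0.00474), -0.89 (SE 0.19, adjusted p = 7.52e-05), -1.19 (SE 0.18, adjusted p = 1.24e-08) and -0.95 (SE 0.19, adjusted p = 1.62e-05) at 0, 0.5, 1 and 2 h, and 26.3%, 24.5%, 26.3% and 24.6% of genes were called lower. Without RSKi47 replicate 4 the call at 0 h was lost (-0.37, adjusted p = 0.0782) and those at the later times stood. The *Hbegf* response differed from that of WT cells by -0.63 (SE 0.25, adjusted p = 0.142) at 1 h and -0.39 (SE 0.26, adjusted p = 0.315) at 2 h, and the first was called with library weights (-0.65, adjusted p = 0.0244). With the replicate number of each arm as a block, since numbers paired the libraries in both arms, these were called, at -0.63 (adjusted p = 0.000579) and -0.49 (adjusted p = 0.00549), beside 3.27% and 10.4% of genes called lower without the block.

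*Areg* in RSKi47 libraries at 1 h rests on 1 library. Replicate 1 had 7.14, the highest *Areg* value of all libraries, and replicates 2 to 4 had 4.63, 4.63 and 4.51. With all 4 the difference from WT was 0.06 (SE 0.19, adjusted p = 0.801), and without replicate 1 it was -0.58 (SE 0.14, adjusted p = 0.000273). The difference of the *Areg* responses at 1 h went from -0.08 (adjusted p = 0.95) to -0.73 (adjusted p = 0.0127) in the same way. The difference from PD0325901 at 1 h likewise went from 0.58 (SE 0.19, adjusted p = 0.00735, with 28.6% of genes called higher, and 0.287 in a fit of only the groups compared) to -0.06 (SE 0.14, adjusted p = 0.738). *Fosb* in the same library was listed at 57.7, beyond any possible log2 value, and was set to missing. At 0, 0.5 and 2 h *Areg* under RSKi47 differed from WT by 0.15, -0.13 and 0.25, with adjusted p of 0.538, 0.623 and 0.31. At 0 h its 4 libraries (2.79 to 2.84) lay above all WT libraries, and in a fit of only the groups compared *Areg* was called higher at 0 h (adjusted p = 0.00427) and 2 h (adjusted p = 0.0401). The values at 0 h all lay below the filter, and the *Nfkb1*[SS/AA] libraries at 0 h (2.79 to 2.87) stood above all WT libraries as well and were called in the same kind of fit (0.16, adjusted p = 0.0013). Compared directly, RSKi47 and PD0325901 did not pass the test in *Errfi1* (-0.18, 95% interval -0.52 to 0.15, at 0.5 h and 0.18, 95% interval -0.13 to 0.49, at 1 h) or in *Hbegf* (-0.22, 95% interval -0.60 to 0.16, and 0.24, 95% interval -0.11 to 0.59). At 0.5 h the *Errfi1* libraries did not overlap, and in a fit of only the groups compared both differences at 0.5 h were called, at adjusted p = 0.00185 for *Errfi1* and 0.0497 for *Hbegf*. The *Hbegf* difference at 1 h was called with library weights (0.32, adjusted p = 0.0345). Without RSKi47 replicate 4, both were called higher under RSKi47 at 1 h, *Errfi1* by 0.38 (adjusted p = 0.0381) and *Hbegf* by 0.41 (adjusted p = 0.0462).

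Over the 25 group means, which share libraries' normalization and the time of LPS, *Errfi1* correlated with *Areg* at r = 0.91 and with *Hbegf* at r = 0.81, and *Hbegf* with *Areg* at r = 0.69. Without RSKi47 replicate 1 at 1 h, left out after the data were seen, these were 0.92, 0.81 and 0.70. The genes most like *Errfi1* in this respect were *Hilpda* (r = 0.96), *Zfp719*, *Kdm6b*, *Maff* and *Btg1*. Those most like *Hbegf* were *Dusp5* (r = 0.87), which encodes a phosphatase of ERK1/2, *Mllt11*, *Fosl1*, *Srf*, the partner of ELK1 and ELK4, and *Wsb1*. Those most like *Areg* were *Sde2* (r = 0.96), *Zfp622*, *Fam110a*, *Stk35* and *Spry1*, which encodes an inhibitor of receptor tyrosine kinase signaling, and these 5 also came first without that library. In the other lists *Tnfsf9* then took the place of *Btg1* and *Ints6* that of *Wsb1*, and *Mllt11* stood before *Dusp5*.

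**Figure D4:**
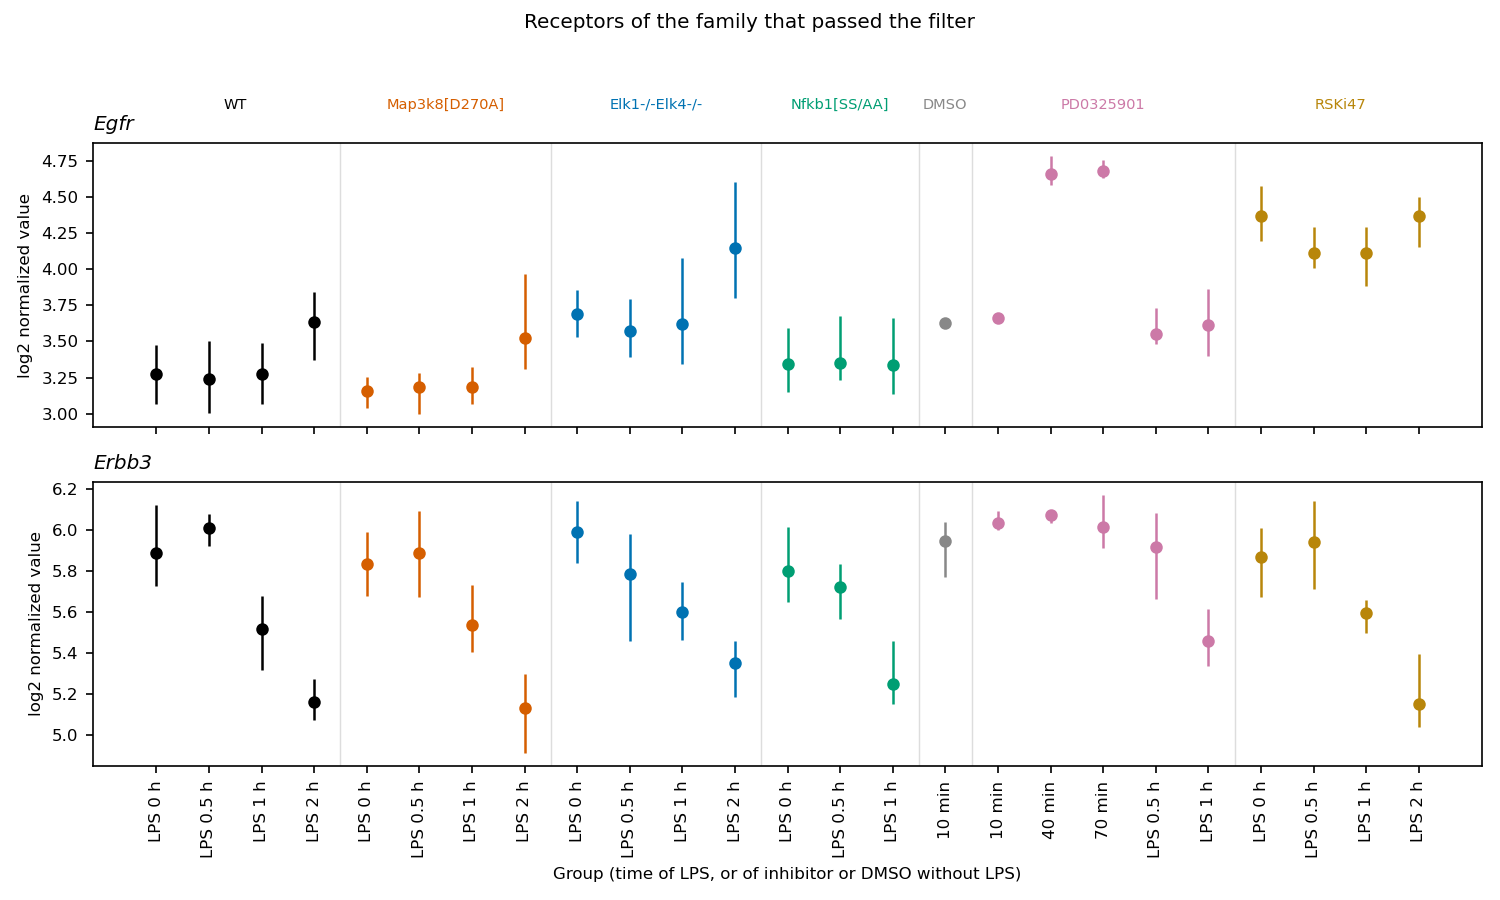
Mean (point) and range (line) of the log2 normalized value (y axis) of *Egfr* and *Erbb3* in each group (x axis). *Egfr* is highest after 40 and 70 min of PD0325901 without LPS, from 4.58 to 4.78, against 3.63 to 3.70 after 10 min, and *Erbb3* is lower at 1 and 2 h of LPS than at 0 h in the arms with those times.

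Of the 4 receptors of the family, *Egfr* and *Erbb3* passed the filter and *Erbb2* and *Erbb4* did not. *Egfr*, the receptor that MIG6 and these 3 ligands bind, was low, from 2.99 to 4.78, and reached the filter in 75 libraries. It had 3.59 to 3.66 after DMSO, 3.63 to 3.70 after 10 min of PD0325901, 4.58 to 4.78 after 40 min and 4.63 to 4.75 after 70 min. The groups at 40 and 70 min stood clear of both others, and *Egfr* rose by 1.00 (SE 0.14, adjusted p = 3.96e-08) and 1.02 (SE 0.14, adjusted p = 1.23e-08) from 10 min, when 1.32% and 2.62% of genes rose. With LPS on top of the inhibitor it was lower than with the inhibitor alone by -1.10 (SE 0.12, adjusted p = 8.33e-13) at 0.5 h and -1.06 (SE 0.12, adjusted p = 3.65e-13) at 1 h. The means of *Hbegf* stood in the opposite order in these groups, lower after 40 and 70 min of inhibitor alone and higher with LPS.

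*Egfr* was higher than in WT cells at all 4 times under RSKi47, by 1.09 (SE 0.11, adjusted p = 8.75e-15) at 0 h and 0.73 (SE 0.12, adjusted p = 1.58e-07) at 2 h, and at all 4 times in *Elk1*-/-*Elk4*-/- cells, by 0.33 to 0.51, but after 10 min of DMSO too, by 0.35 (SE 0.12, adjusted p = 0.0227). Of all genes, 26.8%, 23.7%, 26.5% and 27.5% were called higher under RSKi47 at 0, 0.5, 1 and 2 h, 27.2%, 22.4%, 27.2% and 27.7% in *Elk1*-/-*Elk4*-/- cells, and 12.5% after DMSO. The stromal and neutrophil marker levels given above differ between these libraries as well. In DMSO libraries the neutrophil markers ranged from 7.53 to 8.24 and the stromal markers from 4.03 to 4.26. The part of these levels in the *Egfr* differences was not tested. In *Map3k8*[D270A] cells *Egfr* did not pass the test at any time. *Erbb3*, a receptor for neuregulins with little kinase activity, fell with LPS in WT cells by -0.37 (SE 0.08, adjusted p = 5.35e-05) at 1 h and -0.73 (SE 0.09, adjusted p = 8.46e-11) at 2 h. Among the 8 other ligands listed, *Nrg4* passed the filter, reaching it in 8 libraries, *Egf*, *Tgfa*, *Btc*, *Epgn*, *Nrg1* and *Nrg2* did not, and *Nrg3* had no row.

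The genes that release the ligands were read in full. Of 6, *Adam17*, *Adam10*, *Rhbdf1*, *Rhbdf2* and *Frmd8* were tested and the inhibitor gene *Timp3* was too low. At 1 h of LPS in WT cells 2 were higher and 1 was lower, and at 2 h 3 were higher and 2 lower, while 23% and 36.8% of all genes were called lower and 23.8% and 34.7% higher at these times, the median difference at 2 h being 0.88 against -0.02 over all genes. *Rhbdf2*, whose product iRhom2 carries ADAM17 to the surface of macrophages, rose by 1.13 (SE 0.09, adjusted p = 3.78e-17) at 1 h and 2.04 (SE 0.10, adjusted p = 2.58e-26) at 2 h, and *Adam17* by 0.44 (SE 0.04, adjusted p = 2.34e-15) at 1 h. *Rhbdf1*, which encodes the related iRhom1, rose by 1.45 (SE 0.16, adjusted p = 9.39e-12) at 2 h. In *Map3k8*[D270A] cells *Rhbdf2* was lower than in WT cells by -0.29 (SE 0.09, adjusted p = 0.02) at 1 h and -0.33 (SE 0.10, adjusted p = 0.00574) at 2 h, and *Rhbdf1* by -0.72 (SE 0.16, adjusted p = 0.000398) at 2 h, while *Frmd8*, which stabilizes iRhom proteins, was higher by 0.38 (SE 0.06, adjusted p = 9.07e-07).

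Other genes that turn the receptor over or restrain it, besides *Errfi1*, were *Cbl*, *Cblb*, *Lrig1*, *Lrig3*, *Rnf41*, *Socs4*, *Socs5* and *Sh3kbp1*. Of these 8, 5 were higher at 0.5 h and 5 at 1 h of LPS in WT cells, with a median difference of 0.25 at 1 h against 0.00 over all genes, of which 7.82% and 23.8% were called higher. *Socs5*, encoding a suppressor of cytokine signaling that also acts on the EGF receptor, rose by 0.48 (SE 0.05, adjusted p = 4.94e-13) and *Cblb*, a ubiquitin ligase, by 0.37 (SE 0.08, adjusted p = 6.40e-05) at 1 h. In *Map3k8*[D270A] cells 1 was higher than in WT at 1 h, and at 2 h 3 were higher, *Lrig1* by 0.38 (SE 0.07, adjusted p = 1.32e-05), and 2 lower, *Socs5* by -0.23 (SE 0.05, adjusted p = 0.000419). Of all genes 5.14% were called higher at 1 h and 14.6% at 2 h, and 13.1% lower at 2 h. Of 10 adapter and RAS pathway genes, 4 were lower in *Map3k8*[D270A] than in WT cells at 2 h, among them *Grb2* by -0.18 (SE 0.03, adjusted p = 5.30e-05), against the same 13.1% of all genes.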

How the data were processed

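RNA was sequenced by the authors, aligned with STAR and counted per gene with RSEM on mm10 with RefSeq genes, and the deposited values are log2 normalized counts from 1 table. Versions per the labels were STAR 2.5.1b, RSEM 1.2.29 and DESeq2 1.10.1, and no source used here gives the transformation. The files hold no counts or depth per library, so no counting interval can be given. Here, 1 value above 25 was set to missing. Genes at 10 or more on the linear scale in at least 4 of 62 libraries (11884 genes, WT, *Map3k8*[D270A] and *Elk1*-/-*Elk4*-/-) or 3 libraries of all arms (11971 genes, all other comparisons) were tested with limma 3.58.1 in R 4.3.3, Benjamini-Hochberg adjusted. Differences are first minus second group, with SE. The method was tested on simulated data.

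The members and lists were chosen with earlier results of these data known. Named genes were the members, the listed pathway genes that passed the test or define a list, and the 5 genes with the highest Pearson r to each member over group means. The replicate numbers within WT, *Nfkb1*[SS/AA] and most *Map3k8*[D270A] and RSKi47 times paired the libraries (same-numbered deviations correlated above 0.1 in every pair for 20 of 37 pairs of groups), and between arms they did not (0 of 19). Between WT and *Map3k8*[D270A] only equal numbers were compared, with mean correlations from -0.31 to -0.26. Other matchings of these libraries were not tested. Alternatives were other libraries in the fit, median scaling, quantile normalization, trend and robust prior, library weights, no filter, a 2-fold threshold, replicate blocks, replicate groups, averaged repeats, and leaving out each replicate. Promoter sequences and gene positions are from RefSeq, GRCm38.p6, and of the 4 members only promoters of *Errfi1* and *Areg* were read there, that of *Hbegf* not being searched.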

Additional observations from a re-analysis of the deposited data

Results flagged for a closer look

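Among the 80 groups of 4 to 6 libraries examined for 4 genes, 8 held a library far from the others, where chance gives about 1 in 20. *Errfi1* stood out in WT replicate 6 at 2 h (11.84, others from 11.37 to 11.43) and in *Nfkb1*[SS/AA] replicate 1 at 1 h (12.11, others from 11.68 to 11.82). *Hbegf* did so in RSKi47 replicate 4 at 0 h (5.50, others from 6.21 to 6.33). *Areg* did so in *Map3k8*[D270A] replicate 4 at 0.5 h (3.19, others from 2.74 to 2.89) and in RSKi47 replicate 1 at 1 h (7.14, others from 4.51 to 4.63). *Ereg*, near its floor throughout, did so in *Map3k8*[D270A] replicate 1 at 2 h (-0.33) and in *Elk1*-/-*Elk4*-/- replicate 3 at 0.5 h (-0.40) and 2 h (-0.24).

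The LPS response differed from that of WT cells by a direct test without replicate blocks in 5 cases for the ligands, *Errfi1* being left out because it was selected on the WT response. For *Hbegf* they were *Map3k8*[D270A] at 1 h (-1.20) and 2 h (-1.10) and *Nfkb1*[SS/AA] at 1 h (-1.29), and for *Areg* *Map3k8*[D270A] at 1 h (-0.98) and *Nfkb1*[SS/AA] at 1 h (-0.89). All 5 differences are negative, and all share the WT libraries. *Hbegf* in *Map3k8*[D270A] cells at 2 h changed by -0.57 with LPS, against 0.53 in WT cells, and the others are smaller rises. With replicate blocks within arms, given below, 9 of 26 differences of responses were called.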

How the results depend on the processing

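Requiring a 2-fold difference as well lowered the number of calls on members, *Errfi1* left out of comparisons with WT or *Map3k8*[D270A] libraries and *Areg* of those between LPS and no LPS, from 3 to 1 of 3 for the WT response, from 3 to 0 of 8 for *Map3k8*[D270A], from 2 to 0 of 8 for *Elk1*-/-*Elk4*-/-, from 3 to 1 of 6 for *Nfkb1*[SS/AA], from 3 to 1 of 15 for PD0325901, from 4 to 1 of 8 for RSKi47, from 5 to 3 of 26 for differences of responses and from 10 to 0 of 20 between arms. Weighting the libraries raised the calls to 6 for *Map3k8*[D270A], 6 for *Elk1*-/-*Elk4*-/- and 5 for PD0325901, and moved called *Hbegf* differences from WT by over 1.5 times in *Map3k8*[D270A] at 2 h (-0.39), PD0325901 at 0.5 h (-0.41) and RSKi47 at 0 h (-0.36) and 2 h (-0.63). Fitting only the groups compared raised the calls to 6 for PD0325901. The first replicate set alone gave 5 calls for *Map3k8*[D270A] and the second set, with 1 WT library at 2 h, gave 1. Leaving out each replicate gave 2 to 4 calls for *Elk1*-/-*Elk4*-/-, 4 without WT replicate 9, and the 2 reversals, *Areg* under RSKi47 at 1 h against WT (-0.58 to 0.30) and against PD0325901 (-0.061 to 0.82), both lowest without RSKi47 replicate 1. With the replicate number as a block across arms, where same-numbered libraries did not pair, there were 6 calls for *Map3k8*[D270A], 2 for *Elk1*-/-*Elk4*-/- (*Hbegf* at 1 h lost its call, at -0.34 with adjusted p = 0.0547, and *Areg* at 1 h gained one, at -0.39 with adjusted p = 0.0226), 3 for *Nfkb1*[SS/AA], 4 for PD0325901, 4 for RSKi47 and 10 between arms. The numbers that WT and *Map3k8*[D270A] share fall in opposite replicate sets. Blocks within arms gave 3 of 3 calls for the WT response, 2 of 2 for its later steps, 20 of 23 for the responses within arms and 9 of 26 for their differences. Among the 4 gained, *Hbegf* in *Elk1*-/-*Elk4*-/- at 2 h (-0.58, adjusted p = 0.00118) and PD0325901 at 1 h (-0.55, adjusted p = 0.00679) were in arms whose numbers did not pair every library. Over these comparisons, 941 of 1016 values under another setting and 1075 of 1105 with a replicate left out kept their call. Library medians ranged over 0.07 in the 62 libraries, and median scaling and quantile normalization changed no call counted here. The depth of each library is not in the files, and low values of *Areg* and *Ereg* near the floor may understate differences. The cause of these changes was not tested.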
